A study of Mus musculus with 72 samples.

Results

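The cytochrome P450 genes were taken as every row of the count table whose gene symbol starts with Cyp and a digit, which gave 100 genes among 23930. P450 enzymes are heme proteins that add oxygen to their substrates with electrons from the reductase encoded by Por. Some act on foreign compounds, and others make or break down fatty acids, sterols, bile acids, retinoic acid and steroid hormones. In the lung, the club cells of the small airways are known for high levels of foreign compound P450s, and mouse Cyp2a5 is known to activate the tobacco nitrosamine NNK to products that attack DNA.

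All 72 libraries came from Gprc5a-/- mice, which lack a receptor gene of the lung epithelium that is known as a lung tumor suppressor. Normal-appearing lung was sampled at baseline before NNK at 8 weeks of age (10 mice), at the end of NNK exposure at 16 weeks (10 mice), 3 months after it at 28 weeks (9 mice) and 7 months after it at 44 weeks (10 mice). Tumors dissected from these lungs with a needle gave 4 libraries from 3 mice at the end of exposure, 6 from 4 mice at 3 months and 23 from 9 mice at 7 months. RNA was read with an amplicon panel, and the library totals ran from 7459147 to 21822522 reads. The design held no unexposed mice after baseline and no mice with Gprc5a, so in normal lung the exposure, the time since it and the age of the mice cannot be told apart. Levels below are read counts scaled to a common library total with TMM factors (CPM). Read counts of different genes also depend on their amplicons, so the shares given below are shares of reads and not of transcripts.

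Gprc5a itself gave 0 to 4 reads per library and 0 reads in 41 libraries. None of the markers listed for club or alveolar type 2 cells was at 0 in all libraries of a group. The cardiac muscle and endothelial marker lists passed this check as well, so it does not tell tissues apart. Because 1 animal gave up to 7 tumors, the reads of all tumors of a mouse were added up and set against the normal lung of that mouse, in 16 mice. Levels of these summed tumors and their normal lungs were scaled among themselves. They can differ slightly from the levels of single libraries.

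Of the 100 P450 genes, 42 stayed under 1 CPM in every library and 58 reached it in at least 1. A filter on low counts left 36 for the tests between times in normal lung and 41 for the tests of tumors. By role, the tests of tumors covered 4 of 6 genes listed around NNK activation, 11 of 20 Cyp4 genes, 7 of 27 other Cyp2 and Cyp3 genes for foreign compounds and 5 of 23 Cyp2c, Cyp2j and Cyp2u genes. In baseline lung, 33 had a mean of at least 1 CPM, 20 of at least 10 CPM and 5 of at least 100 CPM. Those 5 were Cyp2f2 (12853 CPM), Cyp4b1 (708 CPM), Cyp2s1 (454 CPM), Cyp2a5 (189.8 CPM) and Cyp2b10 (175 CPM). Cyp4f15, Cyp20a1, Cyp4f13, Cyp39a1 and Cyp4f17 followed, with baseline means from 33.1 to 85.1 CPM.

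Cyp2f2 alone gave most P450 reads of normal lung. Its share of the summed P450 reads was 79.8% to 88.3% (median 85.3%) in the 10 baseline lungs and 44.2% to 83.2% (median 62.97%) in the 10 lungs at 7 months. The summed level of all 100 genes was 14952 ± 4754 CPM (SD, n = 10) at baseline and 6642 ± 3395 CPM (SD, n = 10) at 7 months. In the 23 tumors at 7 months it ran from 596 to 3851 CPM (median 1349). Without Cyp2f2, the mean sum was 2099 CPM at baseline, 2089 CPM in normal lung at 7 months and 684 CPM in the tumors of that time.

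Cyp2a5 and Cyp2a4 are near-identical gene copies on chromosome 7, and Cyp2f2 lies on the same chromosome. Their promoters, from RefSeq (GRCm38.p6), are shown because all these genes were lower in tumors. They cannot show whether the reads of the first pair were told apart. Each runs from 250 bases before to 50 bases after the annotated start, and all lie on the plus strand, Cyp2a5 at chr7:26835089-26835388, Cyp2a4 at chr7:26306942-26307241 and Cyp2f2 at chr7:27119705-27120004. Capitals mark matches to the C/EBP motif TTGCNNAA.
Cyp2a5: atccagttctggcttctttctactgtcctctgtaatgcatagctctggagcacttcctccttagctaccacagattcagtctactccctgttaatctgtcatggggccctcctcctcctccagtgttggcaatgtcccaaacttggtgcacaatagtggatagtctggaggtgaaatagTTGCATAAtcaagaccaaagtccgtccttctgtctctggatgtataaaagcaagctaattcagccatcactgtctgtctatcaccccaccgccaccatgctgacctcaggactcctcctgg
Cyp2a4: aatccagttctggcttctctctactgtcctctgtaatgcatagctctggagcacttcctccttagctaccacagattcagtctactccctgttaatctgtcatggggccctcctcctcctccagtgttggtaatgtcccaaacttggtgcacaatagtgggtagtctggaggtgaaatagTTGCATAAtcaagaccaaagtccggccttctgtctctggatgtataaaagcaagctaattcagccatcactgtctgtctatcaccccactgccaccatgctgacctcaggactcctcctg
Cyp2f2: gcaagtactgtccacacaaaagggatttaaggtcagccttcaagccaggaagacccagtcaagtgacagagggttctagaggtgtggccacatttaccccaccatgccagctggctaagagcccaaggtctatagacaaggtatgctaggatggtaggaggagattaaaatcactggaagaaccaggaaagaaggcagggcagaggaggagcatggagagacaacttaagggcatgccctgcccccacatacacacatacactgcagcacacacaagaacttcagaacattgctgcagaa
Aligned end to end, the Cyp2a5 and Cyp2a4 windows shared 294 bases, with 5 mismatches and 2 gap positions (97.7% identity), against 51.5% between Cyp2f2 and Cyp2a5. Each of the first pair held 1 match to TTGCNNAA, and the Cyp2f2 window held none. On both strands, 23.8% of the 84 P450 promoters found for 74 genes held this motif, against 10.8% of all 32851 promoters. The core GCGTG, known from the aryl hydrocarbon receptor element, was in 21.4% of P450 promoters and 32.4% of all. The forkhead core TGTTTAC was in 9.52% and 3.65%. These are matches of letters only, and promoters of gene copies are alike in sequence.

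**Figure D1:**
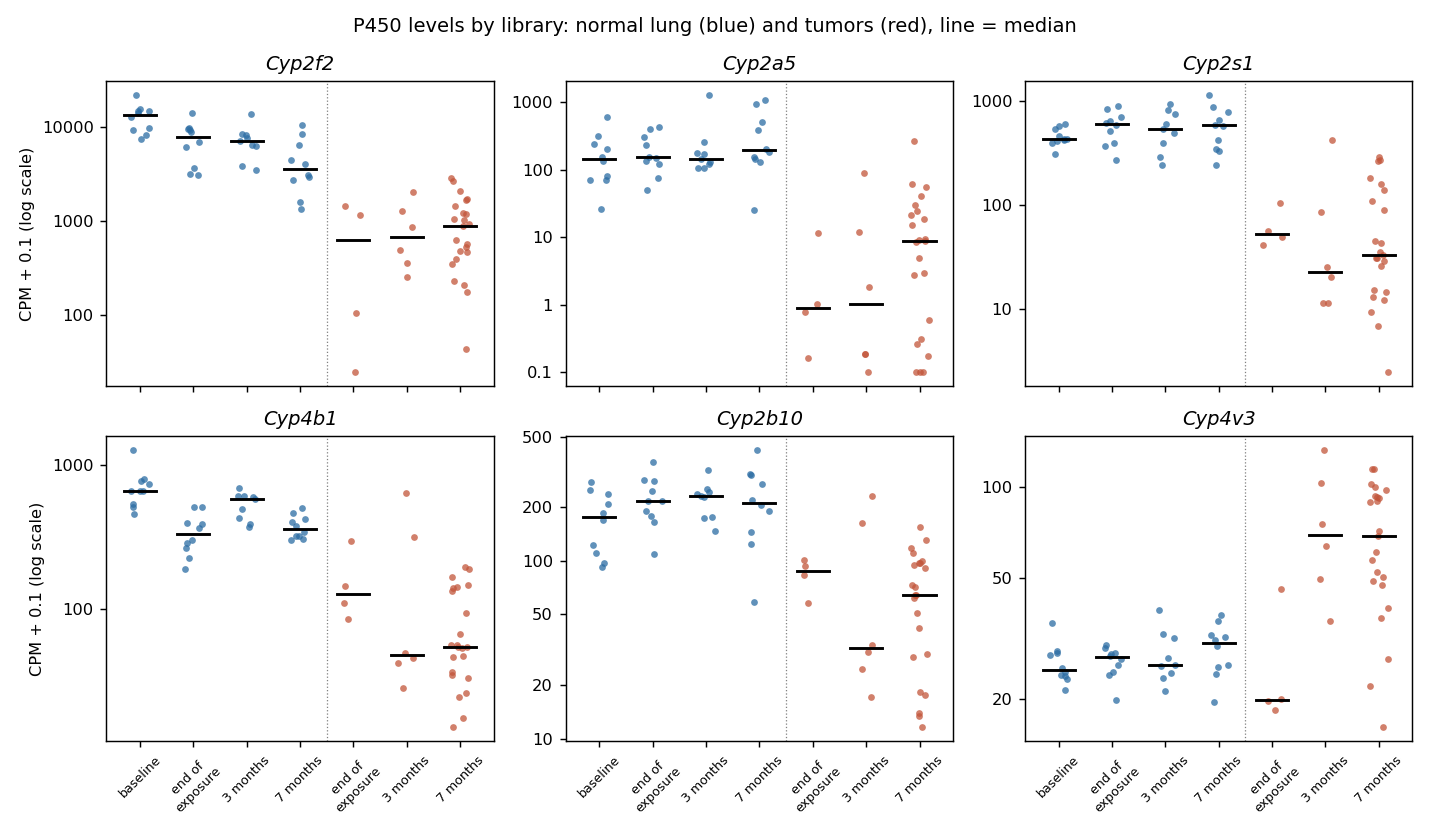
CPM + 0.1 on a log axis for 6 P450 genes in the 39 normal lungs (blue) and 33 tumors (red) by time, where each point is 1 library and each line a median. Cyp2f2 medians step down in normal lung from 13403 to 3577 CPM, the first 5 genes lie lower in most tumors, and Cyp4v3 lies higher in most tumors at 3 and 7 months.

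In tumors, all 4 tested genes of the list around NNK activation, Cyp2a5 and its Cyp2a, Cyp2b and Cyp2s relatives Cyp2a4, Cyp2b10 and Cyp2s1, fell. Over the 41 P450 genes that passed the filter, 19 fell and 5 rose in the average over 16 animals, where edgeR's quasi-likelihood test called 49.7% of all genes, 25.4% lower and 24.3% higher. Among those that rose, Cyp2c68 and Cyp21a1 passed the filter only through the tumors. Among those that fell, Cyp2a4 passed it only through the normal lungs. The median log2 fold change of the 41 was -0.43, beside -0.01 over all genes tested. In bulk tissue, fewer cells of a type and less RNA per cell cannot be told apart.

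Cyp2a5, the NNK-activating hydroxylase, read 25.7 to 608 CPM (median 144) at baseline, 50.6 to 429 CPM (median 152) at the end of exposure, 106 to 1291 CPM (median 146) at 3 months and 24.9 to 1093 CPM (median 194) at 7 months in normal lung. These ranges overlapped throughout, and the 3 month group held 1 lung far above its others. Against baseline its log2 fold change at 7 months was 1.02 (95% interval -0.10 to 2.14; adjusted p = 0.222), so no difference was called. In tumors it read 0.664, 0.0636, 11.3 and 0.906 CPM at the end of exposure, 0 to 88.95 CPM (median 0.912) at 3 months and 0 to 266 CPM (median 8.54) at 7 months. The level was below the lowest normal lung in 27 of 33 tumors, and it was lower than in the own normal lung in 16 of 16 animals. The average log2 fold change was -5.32 ± 0.77 (SE; adjusted p = 4.61e-05), which is 40-fold lower and the largest fall among the 41 tested P450 genes. By time it was -6.14 (adjusted p = 0.0595) at the end of exposure, -5.26 (adjusted p = 0.0303) at 3 months and -5.08 (adjusted p = 0.00138) at 7 months. The call at 3 months was lost in 3 of the edgeR fits that each left out 1 animal (adjusted p = 0.0693 to 0.136). It was also lost in 2 other alternative fits. The tumors of 1 mouse varied as well, since in the mouse with 7 tumors Cyp2a5 ran from 0.0696 to 40.1 CPM beside 181 CPM in its normal lung. In another mouse at 7 months, with 3 tumors, it ran from 4.79 to 266 CPM beside 144 CPM in the normal lung, so 1 of its tumors lay above its own normal lung. These 3 tumors were not alike. Tumor replicate 22 read 274 CPM of the ciliated cell gene Foxj1, and replicate 20 was titled ADC. Replicate 13, in the mouse with 7 tumors, was titled ADC too. All other tumors were titled ADN, and the labels do not define these codes.

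Cyp2a4, a steroid hydroxylase, was higher in normal lung at all 3 later times than at baseline. It read 0 to 0.278 CPM (median 0.09801) at baseline, 0.132 to 2.896 CPM (median 0.767) at the end of exposure, 0.538 to 4.29 CPM (median 1.51) at 3 months and 0.307 to 9.27 CPM (median 1.79) at 7 months. Baseline lungs lay below every lung at 3 and 7 months and overlapped those at the end of exposure. Its log2 fold changes were 3.14 ± 0.64 (SE; adjusted p = 0.001996), 3.78 ± 0.64 (SE; adjusted p = 0.000587) and 4.56 ± 0.64 (SE; adjusted p = 1.13e-05), and it passed the low count filter only through the later groups, so the calls are not independent of the filter. With only the compared groups in the fit it did not pass the filter at any of the 3 times and was not tested. With no filter it was called at all 3 times. Its reads may be shared with the near-identical Cyp2a5, which could not be checked without the amplicon sequences. Per 100 Cyp2a5 reads there were 0.0514 Cyp2a4 reads at baseline, 0.383 at the end of exposure, 0.794 at 3 months and 0.956 at 7 months (medians). In tumors Cyp2a4 was lower in 16 of 16 animals, with an average log2 fold change of -3.80 ± 0.37 (SE; adjusted p = 1.12e-06). The summed tumors read 0 to 0.912 CPM, beside 0.190 to 9.01 CPM in the normal lungs of these animals. Here it passed the filter only through the normal lungs, so this call is not independent of the filter either.

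Cyp2s1, which is known to be inducible through the aryl hydrocarbon receptor, read 242 to 1137 CPM (median 529) in the 39 normal lungs and 2.37 to 415 CPM (median 35.02) in the 33 tumors. It was below the lowest normal lung in 29 tumors and was 10.8-fold lower on average (log2 fold change -3.43 ± 0.49 SE, adjusted p = 4.03e-05), in 16 of 16 animals. Cyp2b10, the classic target of the receptor encoded by Nr1i3, read 58.9 to 420.3 CPM (median 217) in normal lung and 11.5 to 231 CPM (median 64.4) in tumors, and was 3.31-fold lower (log2 fold change -1.73 ± 0.32 SE, adjusted p = 0.000274), also in 16 of 16 animals. No difference from baseline was called for either gene at any time in normal lung. At 7 months the log2 fold changes were 0.40 (adjusted p = 0.276) for Cyp2s1 and 0.37 (adjusted p = 0.309) for Cyp2b10. Cyp2a12 and Cyp2a22, the others of this list, did not pass the filter.

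Cyp2f2, the club cell P450 that oxidises naphthalene, fell in normal lung at 7 months and again in tumors. In normal lung it read 7355 to 21963 CPM (median 13403) at baseline, 3063 to 14203 CPM (median 7889) at the end of exposure, 3469 to 13720.1 CPM (median 7118) at 3 months and 1330.3 to 10548 CPM (median 3577) at 7 months. The group medians went down in that order, and each later range overlapped the baseline range. The log2 fold change against baseline was -0.78 (adjusted p = 0.168) at the end of exposure, -0.83 (adjusted p = 0.236) at 3 months and -1.48 ± 0.32 (SE; adjusted p = 0.00182) at 7 months, which is 2.797-fold lower. The difference between 7 and 3 months was not called, so the step at which the fall took place was not resolved.

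Club cell markers moved with Cyp2f2 in part. Of 15 club cell markers, 9 fell (all genes: 5.31%) and none rose at 7 months, and their median log2 fold change was -1.22 beside 0.02 over all genes. The main secretory product of these cells, Scgb1a1, read 18998 to 41712 CPM (median 25131) at baseline and 5963 to 118616 CPM (median 47206) at 7 months, and was not called. The summed level of the 15 markers was 55030.4 to 120890.5 CPM at baseline and 16952 to 149065 CPM at 7 months, with none at 0 in either group. Per 100 Scgb1a1 reads, Cyp2f2 gave 44.6 reads at baseline, 20.6 at the end of exposure, 38.0 at 3 months and 10.9 at 7 months (medians). The medians did not fall steadily, and the range at 7 months (2.26 to 59.2) overlapped that at baseline (25.7 to 77.7). Whether the share of club cells changed was not tested.

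In tumors Cyp2f2 read 1438, 104, 1157 and 24.5 CPM at the end of exposure, 254 to 2037 CPM (median 674) at 3 months and 43.4 to 2854 CPM (median 880.2) at 7 months. It lay below the lowest of the 39 normal lungs in 25 of 33 tumors. It was lower in 16 of 16 animals, by a log2 fold change of -2.94 ± 0.48 (SE; adjusted p = 0.000102) or 7.68-fold. In the mouse with 7 tumors, Cyp2f2 ran from 207 to 2854 CPM between its tumors, beside 4416 CPM in its normal lung. In the comparison over 16 animals, where 25.4% of all genes were lower, 14 of 15 club cell markers fell, with a median of -2.55, and 11 of 11 tested ciliated cell markers fell. Of 12 alveolar type 2 markers, 11 rose, with a median of 1.84. Markers of other tissues moved in the same comparison. All 9 tested cardiac muscle markers fell (median -4.40), as did 6 of 8 adipocyte (-3.90), 8 of 11 fibroblast and smooth muscle (-1.27) and 8 of 12 endothelial markers (-0.75), while 9 of 10 macrophage markers rose (1.31). These lists were split in part. The other 3 fibroblast and smooth muscle markers, Col1a1, Col1a2 and Col3a1, rose, as did endothelial Emcn and the club cell marker Gsta4. The part of these cell types in the P450 values was not tested.

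**Figure D2:**
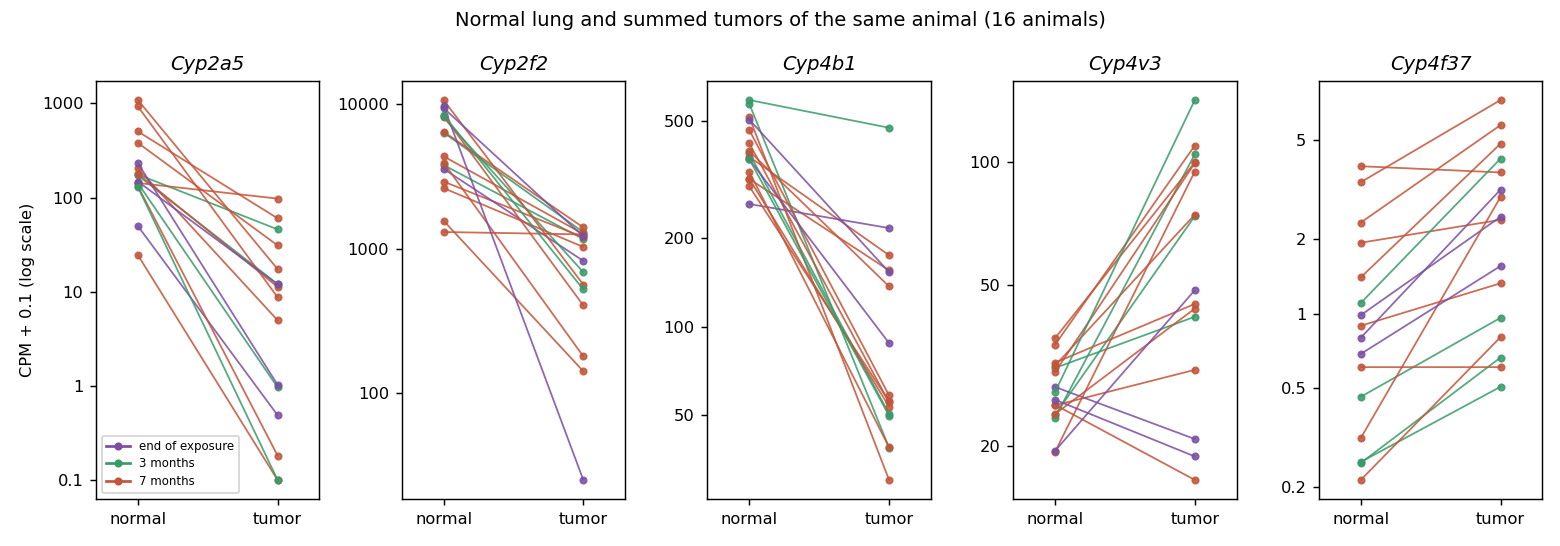
CPM + 0.1 on a log axis in the normal lung and the summed tumors of the same animal, with 1 line per animal (16) and colours for the time. Cyp2a5, Cyp2f2 and Cyp4b1 go down in all 16 animals, and Cyp4v3 goes up in 13 and Cyp4f37 in 14.

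Of the other Cyp2 and Cyp3 genes for foreign compounds, Cyp2e1, Cyp2d22 and Cyp3a57 fell in tumors beside Cyp2f2, and none rose. Cyp2e1, which oxidises ethanol and small nitrosamines, read 3.45 to 57.8 CPM (median 13.9) in normal lung and 0.181 to 30.5 CPM (median 1.62) in tumors. It was lower in the tumors of 15 of 16 animals, with a log2 fold change of -2.60 ± 0.41 (SE; adjusted p = 6.95e-05). Cyp2d22 went from 15.7 to 81.8 CPM (median 30.6) in the normal lungs of the 16 animals to 10.8 to 37.6 CPM (median 15.8) in their summed tumors. Its log2 fold change was -0.94 ± 0.14 (SE; adjusted p = 3.36e-05). Cyp3a57 was low throughout, with at most 3.81 CPM, and its log2 fold change was -2.42 ± 0.47 (SE; adjusted p = 0.000502). In normal lung Cyp3a57 rose (log2 fold change 1.94 ± 0.52 SE, adjusted p = 0.0116) at 7 months.

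Cyp3a13, a member of the Cyp3a drug-metabolising group, fell in normal lung at 3 and 7 months and was not called in tumors. It read 10.4 to 40.3 CPM (median 19.5) at baseline and 8.33 to 15.7 CPM (median 9.03) at 7 months, with groups that overlapped, and the log2 fold change was -0.92 ± 0.20 (SE; adjusted p = 0.00255). At 3 months it was -0.84 ± 0.21 (SE; adjusted p = 0.0228). That call was lost without the highest baseline lung, which read 40.3 CPM (log2 fold change -0.66, adjusted p = 0.0852). In tumors the average log2 fold change was 0.17, with an interval from -0.15 to 0.50.

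The Cyp1 genes oxidise polycyclic compounds and are induced through the aryl hydrocarbon receptor. Cyp1a1 read 0.4600 to 21.7 CPM (median 3.42) in normal lung and 0 to 6.51 CPM (median 0.674) in tumors, was lower in 15 of 16 animals and had a log2 fold change of -2.43 ± 0.33 (SE; adjusted p = 1.88e-05). Cyp1b1 read 7.17 to 54.5 CPM (median 19.9) in normal lung and 0.105 to 310.0 CPM (median 6.29) in tumors, where 1 tumor at 3 months stood far above the others. Its average log2 fold change of -1.24 (adjusted p = 0.0598) was not called, while -1.86 ± 0.68 (SE; adjusted p = 0.0407) at 7 months was. The call at 7 months was lost in 8 of the fits that each left out 1 animal. Cyp1a2, a liver enzyme, did not pass the filter.

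The Cyp4 genes hydroxylate fatty acids and eicosanoids. Of 11 tested in tumors, 3 fell and 2 rose in the average over animals, near the 25.4% and 24.3% of all genes, so the counts say nothing particular about Cyp4 genes. Cyp4b1, an enzyme of the lung that also activates foreign compounds, read 458 to 1275 CPM (median 666) at baseline, 192 to 514 CPM (median 335) at the end of exposure, 372 to 691 CPM (median 585) at 3 months and 305 to 508 CPM (median 362) at 7 months. The highest reading was 1 baseline lung, and the range at the end of exposure and at 7 months overlapped the baseline range only at its low end. The log2 fold changes were -1.03 ± 0.17 (SE; adjusted p = 0.000138) at the end of exposure, -0.41 (adjusted p = 0.3096) at 3 months and -0.89 ± 0.17 (SE; adjusted p = 0.000673) at 7 months. Tumors read 299, 110.1, 146 and 86.1 CPM at the end of exposure, 28.6 to 637 CPM (median 47.9) at 3 months and 15.2 to 195 CPM (median 55.1) at 7 months. They were below the lowest normal lung in 29 of 33, and the average log2 fold change was -2.28 ± 0.28 (SE; adjusted p = 7.81e-06).

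Cyp4f15, an omega hydroxylase, read 51.5 to 171 CPM (median 74.04) at baseline, 8.25 to 63.97 CPM (median 27.1) at 3 months and 14.04 to 63.8 CPM (median 36.03) at 7 months. It fell at both later times, with log2 fold changes of -1.34 ± 0.32 (SE; adjusted p = 0.0173) and -1.19 ± 0.31 (SE; adjusted p = 0.00927), and both groups overlapped the baseline group. The call at 3 months was lost without 1 baseline lung (log2 fold change -1.16, adjusted p = 0.0528), the same lung as for Cyp3a13. In tumors Cyp4f15 read 0 to 21.2 CPM (median 1.66) and was at 0 in 10 of 33. It was lower in 16 of 16 animals, with a log2 fold change of -4.13 ± 0.80 (SE; adjusted p = 0.0004901), or 17.5-fold. Cyp4f17 had the smallest called fall, -0.33 ± 0.11 (SE; adjusted p = 0.0155). It went from 17.3 to 53.00 CPM (median 27.5) in the normal lungs of the 16 animals to 12.4 to 41.2 CPM (median 25.04) in their summed tumors.

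Cyp4v3, the mouse counterpart of a fatty acid hydroxylase that is mutated in a human retinal dystrophy, had the most reads of the P450 genes that rose in tumors. Normal lung read 19.4 to 39.2 CPM (median 27.03), with log2 fold changes from baseline of 0.01 (adjusted p = 0.961), 0.09 (adjusted p = 0.853) and 0.18 (adjusted p = 0.325) at the 3 later times. Tumors read 19.7, 20.03, 46.01 and 18.4 CPM at the end of exposure, 36.1 to 132 CPM (median 69.5) at 3 months and 16.1 to 115 CPM (median 68.6) at 7 months. At the end of exposure 1 of 4 tumors lay above the highest normal lung, while 25 of all 33 tumors did. The log2 fold change was 0.12 (adjusted p = 0.928) at the end of exposure, 1.65 ± 0.43 (SE; adjusted p = 0.0147) at 3 months, 1.03 ± 0.28 (SE; adjusted p = 0.00893) at 7 months and 1.01 ± 0.21 (SE; adjusted p = 0.000772) on average, which is 2.02-fold. The call at 3 months was lost in 3 of the edgeR fits that each left out 1 animal (adjusted p = 0.0685 to 0.0961). The 7 month effect differed from the earlier effect by 0.03 on the log2 scale and was not called as different.

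Cyp4f37, a Cyp4 gene of low level, rose in the tumors of 14 of 16 animals, with a log2 fold change of 1.37 ± 0.26 (SE; adjusted p = 0.000355). It went from 0.113 to 3.83 CPM (median 0.746) in the normal lungs of these 16 to 0.407 to 7.18 CPM (median 2.33) in their summed tumors. It also rose in normal lung at 7 months (log2 fold change 1.601 ± 0.51 SE, adjusted p = 0.0343), but that call was lost in 7 of the fits that each left out 1 lung. Cyp4f18, known from neutrophils as a hydroxylase of leukotriene B4, rose in normal lung from 4.69 to 19.3 CPM (median 8.101) to 7.85 to 37.03 CPM (median 14.2) at 7 months (log2 fold change 0.83 ± 0.26 SE, adjusted p = 0.0304). This call was lost in 5 such fits. Neutrophil markers moved with it, since 8 of 8 tested rose at 7 months, when 7.52% of all genes did. Their summed level was 26.6 to 82.5 CPM at baseline and 73.5 to 443 CPM at 7 months, with none at 0 in all lungs of either group. Their part in the result was not tested. In tumors Cyp4f18 fell at 7 months (log2 fold change -0.63 ± 0.20 SE, adjusted p = 0.01999), with 0.44 (adjusted p = 0.514) at the end of exposure, and the difference between times was not called.

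Cyp4a12a, a fatty acid hydroxylase known as a male-biased gene of mouse liver and kidney, read 0 to 0.341 CPM (median 0) in the 39 normal lungs. It was at 0 in the 4 tumors at the end of exposure, reached 1 CPM in 1 of 6 tumors at 3 months and in 10 of 23 at 7 months, and rose at 3 months (adjusted p = 0.0195) and 7 months (adjusted p = 0.000367). It passed the filter only through the tumors. The call at 3 months was lost with DESeq2 (adjusted p = 0.0597), with limma-voom (0.0613) and without the animal of the 3 month normal lung replicate 1 (0.128) or replicate 3 (0.0998). Because 1 time had no reads, the average comparison gave no usable estimate. The animal names carry the letters F and M, which the labels do not define. At 7 months the 14 tumors of M mice read 0.225 to 6.65 CPM (median 1.39) and the 9 of F mice 0 to 0.897 CPM (median 0.0623). The former came from 4 mice, with 7 tumors from 1 mouse, and the latter from 5 mice. Tumors of 1 mouse are not independent. The ranges overlapped, all 10 tumors of at least 1 CPM were from M mice, and this split was noticed after the values were seen and was not tested.

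Cyp2c and Cyp2j enzymes turn arachidonic acid into epoxides. Cyp2j9 fell in tumors, from 9.58 to 25.3 CPM (median 12.7) to 3.005 to 8.596 CPM (median 5.97), in 16 of 16 animals and with no overlap of these ranges over the 16 normal lungs and the summed tumors (log2 fold change -1.29 ± 0.13 SE, adjusted p = 1.60e-06). Over single libraries the groups overlapped, with 26 of 33 tumors below the lowest of the 39 normal lungs. Cyp2u1, a fatty acid hydroxylase grouped here, fell in tumors (log2 fold change -1.38 ± 0.20 SE, adjusted p = 3.65e-05), in 16 of 16 animals, and rose in normal lung at 3 months (log2 fold change 0.71 ± 0.19 SE, adjusted p = 0.0328). That rise was lost in 9 of the fits that each left out 1 lung. Cyp2j6 was not called on average (log2 fold change 0.19, adjusted p = 0.149) and was higher at 7 months (log2 fold change 0.46 ± 0.14 SE, adjusted p = 0.01602). Its rise at 7 months was not called without TMM scaling, with a log2 fold change of 0.21 (adjusted p = 0.2303), where the median of all genes stood at -0.24.

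Cyp2c68 was nearly absent from normal lung and present in some tumors. It had 24 reads in all 39 normal lungs together, 13 of them in the lung with the most Alb described below, and none of the 39 reached 1 CPM. Tumors read 0, 2.16, 1.39 and 0 CPM at the end of exposure and 0 to 5.08 CPM (median 0.143) at 7 months, and 1 tumor at 3 months read 29.6 CPM. It reached 1 CPM in 8 of 33 tumors and was at 0 in 10. It was higher in 15 of 16 animals (adjusted p = 8.92e-06), and no fold is given because of the few normal reads. Cyp2c68 passed the filter only through the tumors, and reads of the near-identical Cyp2c copies may be split among them.

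Of the sterol and bile acid enzymes, Cyp7b1 rose in tumors and Cyp46a1, Cyp8b1 and Cyp27a1 fell. The levels of Cyp7b1 and Cyp46a1 given here are those of the 16 normal lungs and the summed tumors. Cyp7b1, the oxysterol 7-alpha hydroxylase, went from 1.57 to 7.59 CPM (median 4.79) to 2.78 to 16.6 CPM (median 5.71). It was higher in 14 of 16 animals (log2 fold change 0.48 ± 0.16 SE, adjusted p = 0.0172). With library totals alone its log2 fold change was 0.25 (adjusted p = 0.266). Cyp46a1, the cholesterol 24-hydroxylase, fell from 1.48 to 9.33 CPM (median 3.26) to 0 to 4.45 CPM (median 1.26) (log2 fold change -1.93 ± 0.36 SE, adjusted p = 0.000305). Cyp8b1, the sterol 12-alpha hydroxylase, fell (log2 fold change -0.75 ± 0.19 SE, adjusted p = 0.00377). Cyp27a1, the sterol 27-hydroxylase, fell (log2 fold change -0.63 ± 0.25 SE, adjusted p = 0.0445), a call that was lost in 9 of the fits that each left out 1 animal.

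In normal lung, Cyp39a1, another oxysterol hydroxylase, fell at the end of exposure from 28.8 to 81.4 CPM (median 44.2) to 16.7 to 36.7 CPM (median 24.5) (log2 fold change -0.81 ± 0.16 SE, adjusted p = 0.00182), with overlapping groups. Cyp51, the lanosterol demethylase of cholesterol synthesis, rose at 7 months from 19.4 to 32.2 CPM (median 23.7) to 22.1 to 47.00 CPM (median 32.8) (log2 fold change 0.48 ± 0.13 SE, adjusted p = 0.0166). The rise was smaller than the range within each group, and it was not called without the 5 lungs over 300 CPM of the heart muscle gene Myh6, of which 3 were baseline lungs (adjusted p = 0.0655). Cyp3a57 (adjusted p = 0.0723), Cyp4f18 and Cyp4f37 were not called without these lungs either.

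Cyp21a1 and Cyp11a1 are enzymes of steroid hormone synthesis, and they moved in opposite directions in tumors. Cyp21a1, the 21-hydroxylase, had 21 reads in all 39 normal lungs together and reached 1 CPM in none of them. In tumors it read 0.121, 0.763, 3.603 and 1.87 CPM at the end of exposure, 0 to 20.5 CPM (median 1.67) at 3 months and 0 to 12.98 CPM (median 0.217) at 7 months. It reached 1 CPM in 10 of 33 tumors and was higher in 14 of 16 animals (adjusted p = 1.71e-05). Cyp21a1 also passed the filter only through the tumors. Cyp11a1, which cuts the side chain of cholesterol, fell (log2 fold change -1.34 ± 0.37 SE, adjusted p = 0.00567). It went from 0.629 to 3.83 CPM (median 1.22) in the normal lungs of the 16 animals to 0 to 2.601 CPM (median 0.531) in their summed tumors. The summed level of 5 adrenal and gonad markers was 1.82 to 9.51 CPM in tumors at 7 months and 4.11 to 18.6 CPM in normal lung.

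Cyp26b1, which breaks down retinoic acid, varied widely within groups, with 2.86 to 121 CPM (median 13.2) in normal lung and 2.01 to 73.6 CPM (median 8.22) in tumors. It was lower in the tumors of 15 of 16 animals, and the log2 fold change was -0.96 ± 0.18 (SE; adjusted p = 0.000404). Without the pairing of tumor and normal lung by animal it was -0.84 (adjusted p = 0.125).

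Of the remaining tested genes, 12 were not called and had a 95% interval of the average log2 fold change within -1 to 1, so changes beyond 2-fold lay outside their intervals. The 10 of these with the most reads in tumors were Cyp20a1, Cyp4f13, Cyp39a1, Cyp2j6, Cyp51, Cyp4f16, Cyp3a13, Cyp4f18, Cyp2ab1 and Cyp2r1. Cyp20a1, a P450 without a settled substrate, read 53.8 to 101 CPM (median 74.1) in normal lung and 45.98 to 165 CPM (median 82.00) in tumors, with an interval from 0.02 to 0.43 around 0.23 (adjusted p = 0.0608). Cyp4f13 read 32.3 to 94.9 CPM (median 51.1) and 9.53 to 127 CPM (median 42.5), with an interval from -0.67 to 0.25. Cyp2r1, a vitamin D 25-hydroxylase, had an interval from -0.93 to 0.08, and Cyp39a1 one from -0.38 to 0.24. Cyp4f16, a Cyp4f fatty acid hydroxylase, read 4.17 to 21.9 CPM (median 10.5) in normal lung and 3.38 to 28.96 CPM (median 10.1) in tumors. Cyp2ab1 read 0.7496 to 5.13 CPM (median 2.02) and 0.326 to 9.23 CPM (median 2.99), with an interval from -0.20 to 0.89. The other 5, Cyp4a12a, Cyp4a12b, Cyp27b1, Cyp1b1 and Cyp2t4, were not called and had wider intervals or none.

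**Figure D3:**
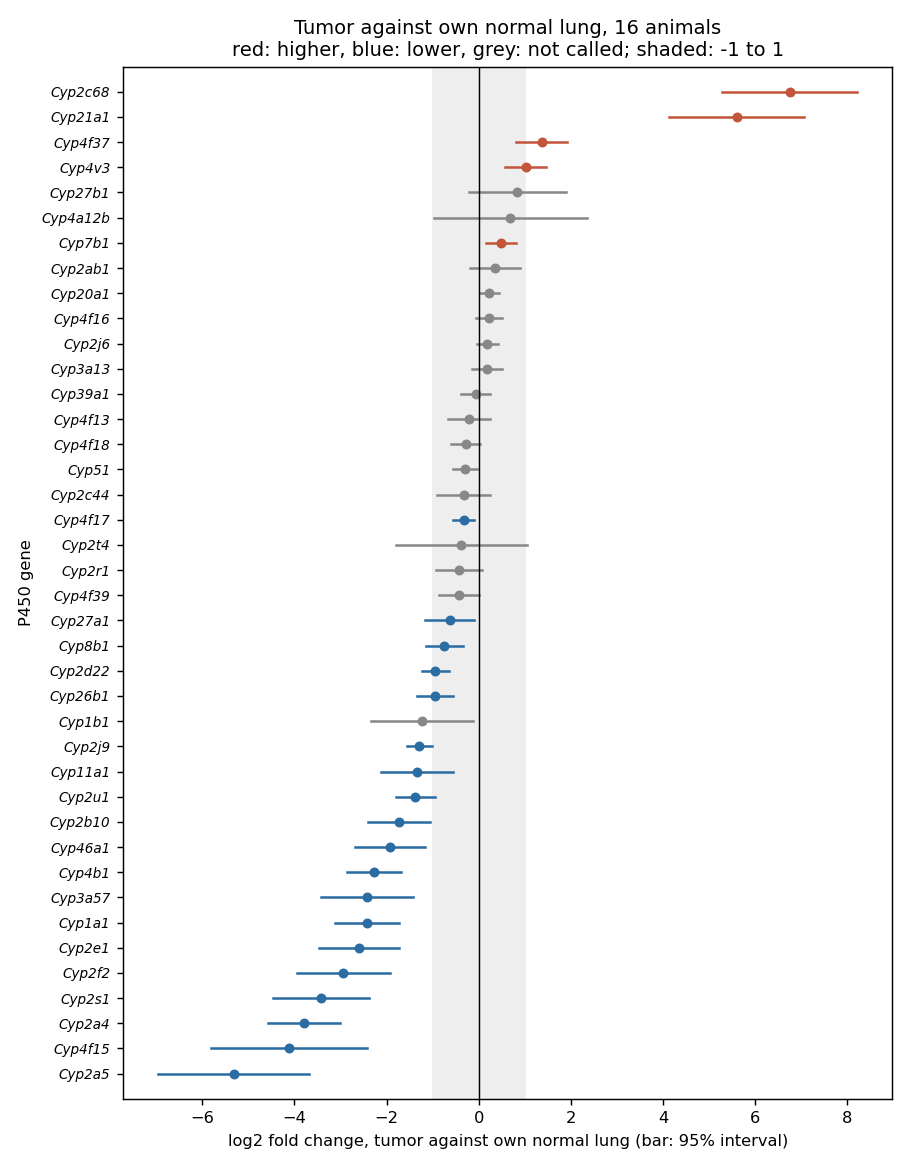
Average log2 fold change of tumors against the own normal lung with its 95% interval for 40 tested P450 genes in 16 animals (Cyp4a12a had no usable estimate). The 19 genes in blue fell, from Cyp2a5 at -5.32 to Cyp4f17 at -0.33, the 5 in red rose, and the values of Cyp2c68 and Cyp21a1 rest on very few normal reads.

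By time, 3 P450 genes were called at the end of exposure (all genes: 4.61%), 21 at 3 months (19.7%) and 25 at 7 months (37.8%). These rest on 3, 4 and 9 animals. The 3 at the end of exposure were Cyp2c68 and Cyp21a1, which rose (all genes: 1.97%), and Cyp2a4, which fell (2.65%). For these, 0 P450 genes were called in each fit that left out 1 of these 3 animals. At 3 months 5 rose (all genes: 9.52%) and 16 fell (10.2%). Without the animal of the 3 month normal lung replicate 1 the count was 8, and without that of replicate 3 or of replicate 8 it was 6, so 5 of the 21 calls held in every fit that left out 1 animal. At 7 months 7 rose (all genes: 18%) and 18 fell (19.8%), and 22 of the 25 held. Among the genes that rose, Cyp2c68 and Cyp21a1 (at each time) and Cyp4a12a (at 3 and 7 months) passed the filter only through the tumors. Cyp2a4, which fell at each time, passed it only through the normal lungs. The calls of all these genes are not independent of the filter. No P450 gene, and no gene at all, was called by edgeR for a difference between the tumor effect at 7 months and the earlier one, with 4 of 41 P450 genes at an unadjusted p under 0.05 and 0 called by DESeq2 or limma-voom.

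Between times in normal lung, few P450 genes were called. At the end of exposure 1 rose (Cyp2a4, which passed the filter only through later groups) and 2 fell (Cyp4b1 and Cyp39a1), which is 8.33% of 36 beside 4.11% of all genes (2.5% higher and 1.61% lower). At 3 months 2 rose, Cyp2a4 among them, and 2 fell, 11.1% beside 1.72% of all genes (1.09% higher and 0.637% lower). Of these 4 calls, 1 held in every fit that left out 1 lung. At 7 months 5 rose, again with Cyp2a4, and 4 fell, 25.00% beside 12.8% of all genes (7.52% higher and 5.31% lower). Of these 9 calls, 7 held in every fit that left out 1 lung. Without the lungs over 300 CPM of Myh6, 8 P450 genes were called, of which 5 were among the 9. The rises of Cyp51, Cyp3a57, Cyp4f18 and Cyp4f37 were lost there. The medians of the 36 were 0.08, 0.11 and -0.01, beside 0.00, 0.01 and 0.02 over all genes. The 3 comparisons share the baseline lungs. At 3 months against the end of exposure edgeR called 0 (1.01% of all genes, 0.342% higher and 0.671% lower; 5 at an unadjusted p under 0.05; DESeq2 3, limma-voom 2). At 7 against 3 months edgeR called 0 (0.0537% of all genes, 0.0335% higher and 0.0201% lower; 9 at an unadjusted p under 0.05; DESeq2 1, limma-voom 0).

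**Figure D4:**
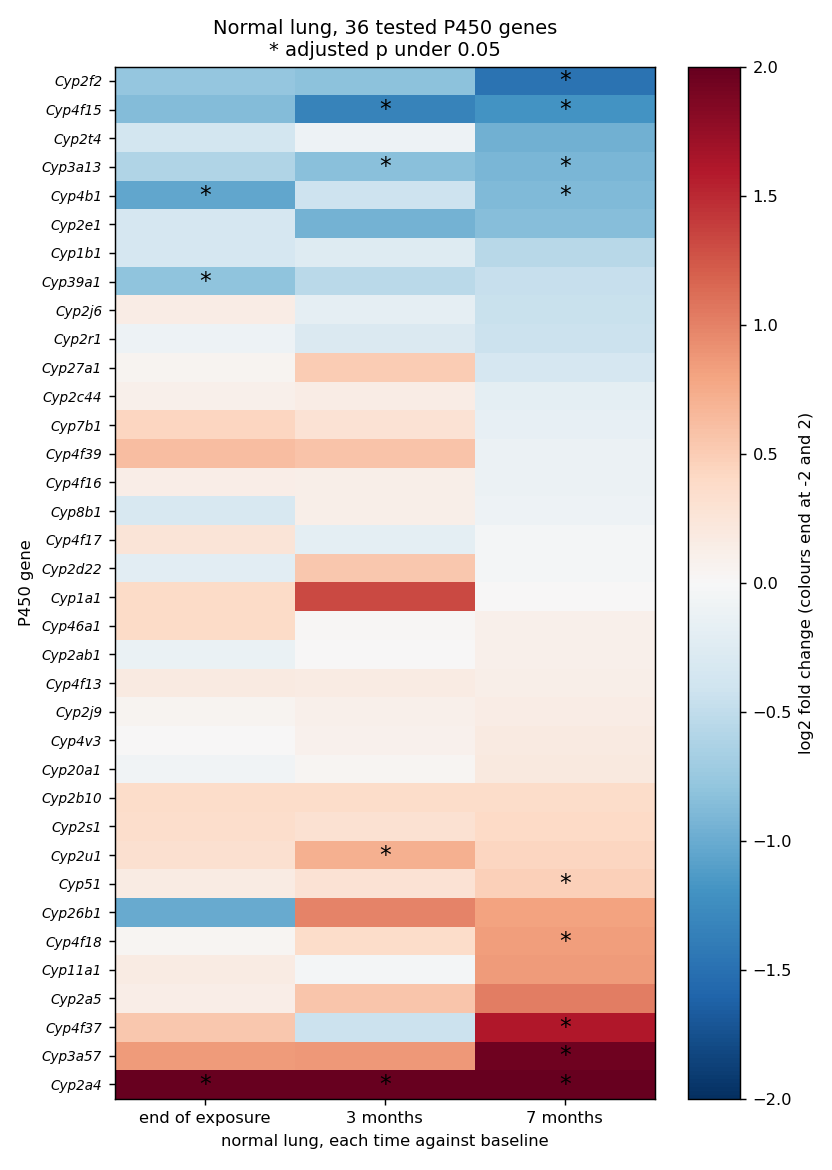
Log2 fold change of the 36 tested P450 genes in normal lung at the end of exposure, 3 months and 7 months, each against baseline, as colours from -2 to 2, with an asterisk where the adjusted p was under 0.05. Cyp2a4 is called higher at all 3 times, and Cyp2f2 has the lowest value at 7 months (-1.48).

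Between lungs of F and M mice, 6 of 36 P450 genes were called (16.7%), near the 18.4% of all genes (9.67% higher and 8.7% lower with F), so the count says nothing particular about P450s. Cyp26b1 (1.36, adjusted p = 0.0108), Cyp2t4 (1.29, adjusted p = 0.00729), Cyp8b1 (0.90, adjusted p = 0.0176) and Cyp7b1 (0.59, adjusted p = 0.0119) were higher with the letter F on the log2 scale. Cyp3a57 (-1.05, adjusted p = 0.0264) and Cyp1b1 (-0.90, adjusted p = 0.002598) were lower. Each time group held 5 F and 5 M lungs, except 5 and 4 at 3 months.

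Many P450 genes of the Cyp2 family lie in 1 run on chromosome 7. In the RefSeq order of GRCm38.p6, 13 of 40 genes of this run were P450 genes. Of the 6 tested in tumors, 5 fell (Cyp2s1, Cyp2b10, Cyp2a4, Cyp2a5 and Cyp2f2), beside 25.4% of all genes, and Cyp2t4 was not called (-0.38, adjusted p = 0.668). Cyp2a4 passed the filter only through the normal lungs, and it may share reads with Cyp2a5. Of the other 35 tested P450 genes, 14 fell and 5 rose. The difference between these shares was not tested, and the genes of the run that are not P450s were not counted.

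Of 9 tested electron partners of P450s, 3 rose and 3 fell in tumors, with a median of -0.15, where 24.3% of all genes were called higher and 25.4% lower. With 9 genes, these counts say nothing particular about the partners. Por, the reductase that supplies most P450s, read 142 to 997 CPM (median 396) in normal lung and 63.1 to 416 CPM (median 173) in tumors and fell (log2 fold change -0.83 ± 0.20 SE, adjusted p = 0.00204). It also fell in normal lung at 7 months (log2 fold change -0.77 ± 0.24 SE, adjusted p = 0.02804). Pgrmc1 (-1.14, adjusted p = 2.53e-05) and Cyb5a (-0.83, adjusted p = 0.000587) fell too, while the cytochrome b5 gene Cyb5b (0.58) and the cytochrome b5 reductase genes Cyb5r1 (0.71) and Cyb5r3 (0.92) rose.

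Of 23 tested regulators of P450 genes, 4 rose and 4 fell in tumors, with a median of -0.03, beside 24.3% and 25.4% of all genes, so the counts say nothing particular about regulators. Those that rose were Cebpa (1.18, adjusted p = 2.39e-05), Nkx2-1 (0.997, adjusted p = 0.00523), Vdr (0.77, adjusted p = 0.0274) and Nr1h3 (0.61, adjusted p = 0.00172). Those that fell were Rxrg (-2.86, adjusted p = 0.000574), the pregnane X receptor Nr1i2 (-2.78, adjusted p = 0.00111), Hnf4a (-1.62, adjusted p = 0.0288) and Rarb (-1.32, adjusted p = 0.000259). In normal lung Hnf4a, a regulator known from liver and gut, rose at each later time, from 0 to 0.367 CPM (median 0.115) at baseline to 0.4600 to 6.76 CPM (median 2.41) at 7 months (log2 fold change 4.42 ± 0.56 SE, adjusted p = 3.26e-06), and like Cyp2a4 it passed the filter only through the later groups. Of 15 other enzymes of NNK reduction and oxidation, 11 fell (all genes: 25.4%) and 1 rose (24.3%), with a median of -0.97 beside -0.01 over all genes. The flavin oxygenases Fmo2, Fmo1 and Fmo5 fell, with log2 fold changes of -1.70, -1.54 and -0.99, and Akr1c18 rose (log2 fold change 3.97 ± 0.51 SE, adjusted p = 1.42e-05).

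A set of P450 genes was highest in 1 normal lung at the end of exposure, which was picked for its albumin reads. That lung was the highest of all 72 libraries in 14 P450 genes that reached 1 CPM there, and in 11 of these the level was at least 5 times that of the next library. How many of all genes were highest in this lung was not counted, so these counts have no background beside them. Cyp3a11 read 13.9 CPM there and at most 0.465 CPM in the other 71, Cyp2d9 9.54 and 0.475, and Cyp1a2 8.18 and 0.286. The same lung was highest in 7 of 11 hepatocyte markers, 1 of them albumin (Alb), for which it was picked. Alb read 161 CPM there and at most 19.3 CPM elsewhere. The markers Apoa1, Apob, Fga and Tat read higher in other libraries. Among all 100 P450 genes, Cyp3a11 was the only one that reached 10 CPM in a library without passing either filter. With no filter on low counts, 10 instead of 3 P450 genes were called at the end of exposure. With the filter kept and this lung left out, 4 were called.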

How the data were processed

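Per the labels' protocols, amplicon libraries (Ion AmpliSeq Transcriptome, mouse) were made from 10 ng of total RNA and sequenced on the Ion Proton, 8 libraries per chip. The authors deposited raw read counts per gene. Which aligner, build and counting step they used was not given in the sources used here, and 2 columns that match no sample were not used. In 27 rows, gene symbols turned into dates were restored. Each count comes from 1 amplicon, and near-identical copies may share reads.

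Counts were tested in R 4.3.3 with edgeR 4.0.16 (filterByExpr, TMM, robust quasi-likelihood fit). Benjamini-Hochberg adjustment ran over all genes tested, with a threshold of 0.05. SE is the absolute log2 fold change divided by the square root of F. All 39 normal lungs entered 1 fit. Tumor fits had the animal as a block, since the titles name the same animal for tumor and normal lung. Within pairs, deviations from the group means correlated at -0.06 to 0.40 (median 0.22), over 0.1 in 11 of 16. The scripts were tested on simulated data. DESeq2 1.42.0, limma-voom (3.58.1), other scalings and filters, and fits that left out libraries served as alternatives.

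The members and gene lists were chosen with earlier results of these data known. Named genes are Cyp2a5, Cyp2f2, the 10 members highest at baseline, members called in a comparison (at most the 20 of smallest p where over 20), up to 10 that stay in tumors, members over 10 CPM that passed no filter, and called genes of the pathway lists. Cyp2a12, Cyp2a22, Cyp1a2, Cyp2d9, Cyp2c44, Cyp4f14, Cyp27b1 and Cyp4a12b were named after their values were seen.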

Additional observations from a re-analysis of the deposited data

Results flagged for a closer look

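In groups of 4 to 10 libraries, the highest library stood apart where its gap to the next was a large part of the group's range (Dixon's test at the 95% level). This was so for 34 of the 193 gene and group pairs examined. The test's rate of 1 in 20, or 9.65 pairs, holds for independent and normally distributed values. The values were CPM without a log, and some tumors came from the same mouse. The 34 therefore cannot be read as an excess over 9.65. Levels are in CPM, with the next highest library of the group beside each.

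Among baseline lungs, replicate 1 stood apart in Cyp26b1 at 96.3 (next 17.4), Cyp2a5 at 608 (next 315) and Cyp2u1 at 6.87 (next 4.198). Replicate 5 stood apart in Cyp39a1 at 81.4 (next 52.6), Cyp3a13 at 40.3 (next 23.7) and Cyp4b1 at 1275 (next 799.9). Replicate 7 stood apart in Cyp4v3 at 35.7 (next 28.7).

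Among normal lungs at the end of exposure, replicate 2 stood apart in Cyp26b1 at 24.0 (next 14.1) and Cyp2d22 at 49.9 (next 31.4). Replicate 7 stood apart in Cyp4f16 at 21.9 (next 13.3). Replicate 8 stood apart in Cyp1b1 at 54.5 (next 30.3) and Cyp3a57 at 2.94 (next 1.25).

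Among normal lungs at 3 months, replicate 2 stood apart in Cyp2e1 at 54.6 (next 16.7). Replicate 6 stood apart in Cyp2a5 at 1291 (next 256) and Cyp2f2 at 13720.1 (next 8465). Replicate 9 stood apart in Cyp4f13 at 94.9 (next 57.0).

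Among normal lungs at 7 months, replicate 2 stood apart in Cyp2t4 at 5.26 (next 2.68). Replicate 3 stood apart in Cyp27a1 at 7.46 (next 4.59). Replicate 4 stood apart in Cyp26b1 at 121 (next 49.1). Replicate 10 stood apart in Cyp2j9 at 25.5 (next 17.8).

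Among the 4 tumors at the end of exposure, replicate 1 stood apart in Cyp2u1 at 2.84 (next 1.64) and Cyp4f15 at 12.97 (next 1.80). Replicate 3 stood apart in Cyp2a5 at 11.3 (next 0.906), Cyp2r1 at 2.29 (next 1.51) and Cyp4v3 at 46.0 (next 20.03). Replicate 4 stood apart in Cyp7b1 at 16.3 (next 6.17).

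Among the 6 tumors at 3 months, replicate 1 stood apart in Cyp1b1 at 310.0 (next 23.6) and Cyp2c68 at 29.6 (next 0.734). Replicate 2 stood apart in Cyp2a5 at 89.0 (next 11.8), Cyp2s1 at 415 (next 84.2), Cyp4f15 at 11.3 (next 2.001) and Cyp51 at 61.1 (next 28.9). Replicate 3 stood apart in Cyp21a1 at 20.5 (next 4.79). Replicate 6 stood apart in Cyp4f37 at 3.82 (next 0.849).

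Tumor replicate 2 at 3 months, 1 of the 2 tumors over 200 CPM of the ciliated cell gene Foxj1, stood apart in 4 P450 genes. For Cyp2j6 the log2 fold change between tumors and own normal lung was -0.65 at the end of exposure, which was not called, and 0.46 at 7 months, which was called. All 3 animals of the first time and all 9 of the second went the stated way. The test of the 7 month effect against the earlier one gave a difference of 0.62 and an adjusted p of 0.992 with edgeR, which misses the threshold.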

How the results depend on the processing

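No P450 gene that was called reversed its direction under any alternative run. In normal lung, 10 instead of 3 P450 genes were called at the end of exposure with no filter on low counts. At 3 months against baseline, 2 instead of 4 were called with only these groups in the fit. At 3 months against the end of exposure, the count of 0 became 1 with library totals alone, with no filter, with only these groups, without the lungs over 300 CPM of Myh6 or without the lung highest in Alb, 3 with DESeq2 and 2 with limma-voom. At 7 against 3 months DESeq2 called 1. Between the letters F and M, 12 instead of 6 were called with no filter.

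In tumors at the end of exposure, the count of 3 became 8 with DESeq2, 5 with limma-voom, 1 with each tumor library on its own and 5 without the 2 tumors over 200 CPM of Foxj1, both from later times. At 3 months the count of 21 became 13 with no filter and 12 with no replicate block. With no replicate block the other counts were 3 at the end of exposure, 19 at 7 months and 21 on average, beside 3, 25 and 24. Leaving out 1 library or animal in turn gave 1 to 5 at 3 months against baseline (1 without baseline replicate 5), 0 to 2 at 3 months against the end of exposure and 0 to 1 at 7 against 3 months. In tumors it gave 0 to 4 at the end of exposure, 6 to 22 at 3 months, 22 to 26 at 7 months and 23 to 27 on average. The causes were not tested.

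Library totals alone moved the median log2 fold change of all genes to -0.37 at 3 months, -0.24 at 7 months and -0.24 on average. The tests at the end of exposure rest on 3 animals, and genes under 1 CPM gave few reads per library.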
